A study of Mus musculus with 4 samples.

Results

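The NRF2 antioxidant genes are a set of 10 mouse genes, chosen by name, that hold the transcription factor NRF2 (gene NFE2L2) and enzymes and a transporter that it is known to induce. They are NFE2L2, NQO1, GCLC, GCLM, TXNRD1, SRXN1, SLC7A11, GPX1, GPX4 and PRDX1. All 10 had values at both time points, among 14123 genes at 7 days post injury (dpi) and 11470 genes at 21 dpi, of which 10876 had values at both.

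RNA-seq was run on spinal cord segments of about 4 mm that held the lesion site. The male mice were human ApoE3 or human ApoE4 targeted replacement animals, which make a human ApoE isoform and no mouse ApoE, and their strain background is not given in the sources used here. At 3 to 5 months of age and under 3% isoflurane they received an incomplete contusion injury of the cord of 50 kdyne, and tissue of 3 mice per genotype was taken at 7 and at 21 dpi. All 4 groups were injured, and RNA of uninjured cord was not analysed here. The FPKM values do not show which ApoE variant a group carried, so the genotype labels could not be checked against them.

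The level of a gene is given as FPKM, fragments normalized to the length of the transcript and to the number of mapped fragments. There was 1 value per gene and group, so no spread between mice is known, no test was run, and no difference has a replicate check. Read numbers per gene are not given, so no counting error is known. The comparison was named as ApoE3 versus ApoE4 and was read that way. But the numbering of the value columns would place ApoE4 first, and under that reading every genotype direction would be reversed. In separate mRNA measurements at a time not sequenced, the paper reports GFAP higher and SNAP25 lower in ApoE4. GFAP as read here had 12395 FPKM in ApoE3 and 12386 FPKM in ApoE4 at 7 dpi, and 8201 and 15313 FPKM at 21 dpi. SNAP25 had 3366 and 2545 FPKM at 7 dpi, and 5336 and 7812 FPKM at 21 dpi. At 21 dpi 93.8% of all genes had a lower value in ApoE3. Relative to the median gene, the log2 ratio of ApoE3 over ApoE4 at 21 dpi was -0.48 for GFAP and -0.13 for SNAP25. At 7 dpi it was -0.0008 for GFAP and 0.40 for SNAP25. Which reading is right was not tested.

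In unstressed cells the KEAP1 and CUL3 ubiquitin ligase holds NRF2 protein low, and oxidants or electrophiles that modify KEAP1 let NRF2 accumulate. It then pairs with a small MAF protein at antioxidant response elements and induces genes of glutathione synthesis, thioredoxin recycling and quinone detoxification. Much of this control acts on the protein, so the mRNA of NFE2L2 is not a measure of NRF2 activity. In injured spinal cord, blood, iron and infiltrating phagocytes are known sources of oxidants.

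The levels spanned a wide range. GPX4, a selenoprotein that reduces lipid hydroperoxides in membranes, had the highest level of the set in each of the 4 groups, 2019.6 FPKM in ApoE3 and 1936 FPKM in ApoE4 at 7 dpi, and 4272 and 4924 FPKM at 21 dpi. GPX1, the cytosolic selenoprotein that reduces hydrogen peroxide with glutathione, was next in each group, at 726 FPKM in ApoE3 and 899.9 FPKM in ApoE4 at 7 dpi, and at 529 and 729 FPKM at 21 dpi. The glutathione peroxidases thus led the set in both genotypes and at both times, and GPX4 stood above the level of 99.5% of all genes in ApoE3 at 7 dpi.

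Below them in each group came TXNRD1, the cytosolic selenoprotein that recycles thioredoxin with NADPH. Its level was 562 FPKM in ApoE3 and 593 FPKM in ApoE4 at 7 dpi, and 337 and 478 FPKM at 21 dpi. PRDX1, a peroxiredoxin that removes peroxide and is recycled by thioredoxin, had 93.6 FPKM in ApoE3 and 102 FPKM in ApoE4 at 7 dpi, and 69.6 and 109 FPKM at 21 dpi. SRXN1, the sulfiredoxin that repairs overoxidized peroxiredoxins, had 82.0 FPKM in ApoE3 and 69.8 FPKM in ApoE4 at 7 dpi, and 58.7 and 89.9 FPKM at 21 dpi. For PRDX1 and SRXN1 the ApoE3 value at 21 dpi was the lowest of the 4 and the ApoE4 value at 21 dpi the highest.

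NFE2L2 itself had 79.5 FPKM in ApoE3 and 94.7 FPKM in ApoE4 at 7 dpi, and 37.9 and 54.0 FPKM at 21 dpi, so both values at 21 dpi were below both at 7 dpi. Glutathione synthesis starts with glutamate cysteine ligase, whose catalytic subunit is GCLC and whose modifier subunit is GCLM. The level of GCLC was 23.7 FPKM in ApoE3 and 24.4 FPKM in ApoE4 at 7 dpi, and 28.0 and 38.4 FPKM at 21 dpi. GCLM stood higher than GCLC in each group, at 60.1 FPKM in ApoE3 and 58.4 FPKM in ApoE4 at 7 dpi, and at 62.2 and 92.2 FPKM at 21 dpi.

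The lowest levels of the set were those of SLC7A11 and NQO1. SLC7A11, the subunit of the cystine and glutamate exchanger that brings in cystine for glutathione, had 16.2 FPKM in ApoE3 and 13.4 FPKM in ApoE4 at 7 dpi, and 7.66 and 8.44 FPKM at 21 dpi. NQO1, which reduces quinones, had 9.98 FPKM in ApoE3 and 9.59 FPKM in ApoE4 at 7 dpi, and 14.0 and 18.2 FPKM at 21 dpi. NQO1 was the lowest of the 10 in both genotypes at 7 dpi and SLC7A11 at 21 dpi, and no member was below 7.66 FPKM in any group. RefSeq names pseudogenes of GPX4 and PRDX1, whose reads can be split with those of the genes, so the levels of these genes are less certain.

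**Figure D1:**
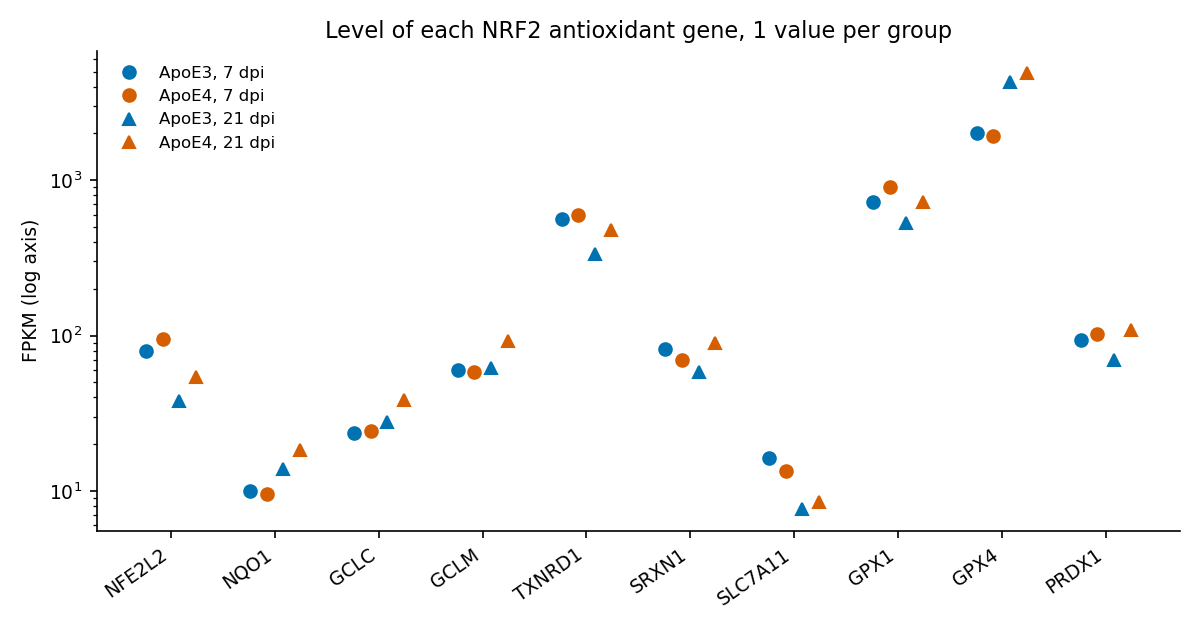
FPKM of each of the 10 NRF2 antioxidant genes on a log axis, with 1 point per group, ApoE3 in blue, ApoE4 in orange, circles for 7 dpi and triangles for 21 dpi. GPX4 is at the top in all 4 groups, from 1936 to 4924 FPKM, and for NFE2L2 and SLC7A11 both triangles lie below both circles.

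The members share a regulator by name, and the sequence before their start sites was searched for the core of the antioxidant response element. RefSeq promoters of build GRCm38.p6, from 250 bases before to 50 bases after a start site, were matched by symbol for 9 of the 10 genes, and there was no entry for GCLC. The motif TGACNNNGC, read on both strands, was in at least 1 window of 5 of these 9 genes and in 5 of their 14 windows. It was in 12.4% of all 32851 windows and in at least 1 window of 14.0% of all 27025 genes. The match of Nfe2l2 lies at chr2:75704885-75704913 on the minus strand, and the others, on the plus strand, at chr2:152105542-152105570 for Srxn1, chr3:122245413-122245441 for Gclm, chr4:116685456-116685484 for Prdx1 and chr10:82859104-82859132 for Txnrd1. These stretches of 29 bases are shown in the direction of the gene because they hold the letters that the 5 genes share, and capitals mark the match.
Nfe2l2: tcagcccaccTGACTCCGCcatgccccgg
Srxn1: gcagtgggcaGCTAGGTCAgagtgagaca
Gclm: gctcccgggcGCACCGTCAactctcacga
Prdx1: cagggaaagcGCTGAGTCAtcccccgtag
Txnrd1: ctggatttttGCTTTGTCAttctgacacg

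In Nfe2l2 the motif reads with the gene and starts at position -240 from the start site, and in the other genes it is on the opposite strand, as GCNNNGTCA. It starts at position -134 in Gclm, at -133 in Prdx1, at -92 in 1 of the 3 Txnrd1 windows and at 29, inside the transcript, in Srxn1. In Prdx1 the match read on its own strand is TGACTCAGC, which also holds TGACTCA, the motif of the AP-1 factors, and none of the other matches holds it. The windows of Nqo1, Slc7a11, Gpx1 and Gpx4 did not hold these letters. A match is a description of the sequence and not a binding site.

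At 7 dpi none of the 10 members differed between ApoE3 and ApoE4 by 1.3-fold or more. The largest difference was that of GPX1, 1.24-fold higher in ApoE4, and NFE2L2 was 1.19-fold higher in ApoE4. SLC7A11 and SRXN1 were lower in ApoE4, at 0.827 and 0.851 of their ApoE3 level, and the other 6 were within 1.09-fold of each other. The set thus held genes on either side, with 5 members above and 5 below the median gene.

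The genotype ratio is the log2 of FPKM plus a pseudocount of 1 in ApoE3 over ApoE4, minus the median of that ratio over all genes whose mean FPKM was 1 or more. A negative relative log2 ratio means a higher level in ApoE4, and the pseudocount makes the difference of genes with low values appear smaller. At 7 dpi the subtracted median was 0.0018. The relative log2 ratio was -0.31 for GPX1 and -0.25 for NFE2L2, and 0.25 for SLC7A11 and 0.23 for SRXN1. The remaining values were -0.12 for PRDX1, -0.08 for TXNRD1, -0.04 for GCLC, 0.04 for GCLM, 0.05 for NQO1 and 0.06 for GPX4.

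Past the fold of 1.3, which is 0.38 on the log2 scale, were 0 of 10 members in either direction at 7 dpi, beside 3.76% of all genes higher in ApoE3 and 4.82% higher in ApoE4. The median relative ratio of the members was 0.00019, and its counterpart over all genes 0.00018. The median size of the difference regardless of direction was 0.10 for the members and 0.12 for all genes. The ratio of GPX1 lay above that of 7.41% of all genes and the ratio of SLC7A11 above that of 90.3%.

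At 21 dpi each of the 10 members had a higher FPKM in ApoE4 than in ApoE3, from 1.10-fold for SLC7A11 and 1.15-fold for GPX4 to 1.53-fold for SRXN1 and 1.56-fold for PRDX1. So did most other genes, since 93.8% of all genes had a lower value in ApoE3. The summed FPKM was 1513370 in ApoE3 and 2049970 in ApoE4, whereas at 7 dpi the sums were 1668601 and 1668668. The median log2 ratio at 21 dpi was -0.42, and relative to it the members lay on both sides, 3 above and 7 below.

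On the relative scale at 21 dpi, PRDX1 had -0.21, SRXN1 -0.18 and GCLM -0.14, which are the members with the highest ApoE4 level relative to the median gene. TXNRD1 and NFE2L2 each had -0.08, GPX1 -0.04, GCLC -0.02 and NQO1 0.06. GPX4 had 0.22 and SLC7A11 0.30, so these genes of lipid peroxide defence and cystine import were higher in ApoE3 relative to the median gene, while their FPKM as deposited was higher in ApoE4. SRXN1, GCLM and GPX4 had relative ratios of 0.23, 0.04 and 0.06 at 7 dpi.

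Relative to the median gene, 0 of 10 members were past the fold of 1.3 at 21 dpi in either direction, beside 7.46% of all genes higher in ApoE3 and 8.06% higher in ApoE4. Without the subtraction 7 of 10 members were higher in ApoE4 past that fold, all but NQO1, SLC7A11 and GPX4, beside 58.9% of all genes. NQO1 fell short only through the pseudocount, since its FPKM was 1.31-fold higher in ApoE4. Also without the subtraction, 0 of 10 were higher in ApoE3 past the fold, beside 2.01% of all genes. The median relative ratio of the members was -0.06 and their median ratio as deposited -0.48. Whether the shift of all genes at 21 dpi is one of the tissue, of the libraries or of the normalization was not tested.

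**Figure D2:**
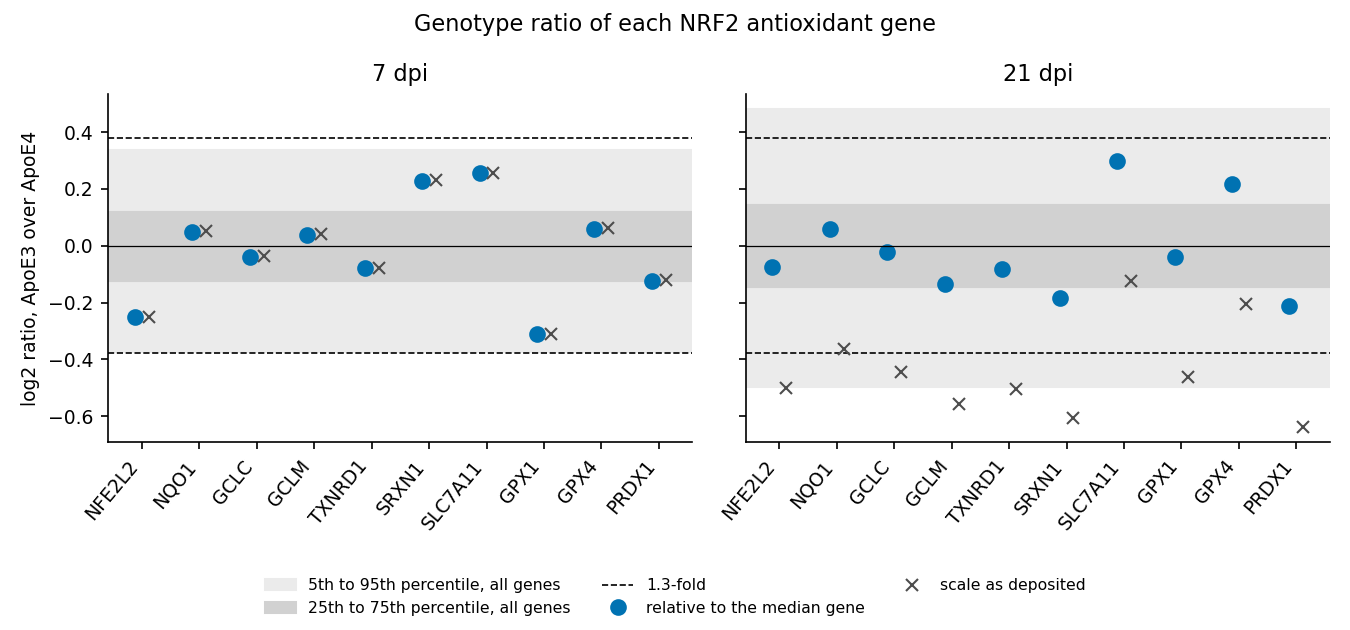
Log2 ratio of ApoE3 over ApoE4 for each of the 10 genes at 7 dpi and at 21 dpi, relative to the median gene (circles) and on the scale as deposited (crosses), with 1 value each. Grey bands give the spread of the relative ratio of all genes and dashed lines the fold of 1.3. All circles lie between the dashed lines, and at 21 dpi the crosses lie lower than the circles by the median shift of all genes, with 7 past the lower line.

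At 21 dpi the 5 members with the motif TGACNNNGC had relative genotype ratios from -0.21 to -0.08, and the 4 with windows but no match from -0.04 to 0.30. At 7 dpi the ranges were -0.25 to 0.23 and -0.31 to 0.25. Over all genes with a window at 21 dpi, the median was 0.0012 for 1461 genes with the motif and 0.00059 for 7450 genes without it. These ranges were looked at after the values were seen and are a description of 9 genes.

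The larger differences of the set were between time points, as they were over all genes. From 7 to 21 dpi NFE2L2 was lower in both genotypes, 2.1-fold in ApoE3 and 1.75-fold in ApoE4, and SLC7A11 was lower by 2.12-fold and 1.59-fold. TXNRD1 was lower by 1.67-fold in ApoE3 and 1.24-fold in ApoE4, and GPX1 by 1.37-fold and 1.23-fold. GPX4 was higher at 21 dpi, 2.12-fold in ApoE3 and 2.54-fold in ApoE4, and NQO1 was higher, 1.4-fold and 1.90-fold. The regulator and its target NQO1 thus differed in opposite directions over time in both genotypes, as deposited and relative to the median gene, although NQO1 was short of the fold of 1.3 relative to the median gene.

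The time ratio is the log2 ratio of 21 dpi over 7 dpi within a genotype, over the 10876 genes listed at both times, minus the median ratio, which was 0.09 in ApoE3 and 0.53 in ApoE4. The values of the time points may have been normalized separately, so a level set across them is less certain than one across genotypes. Each time ratio uses the same groups as the genotype ratios, so the values stand side by side and are not independent of each other. The median size of the relative time ratio regardless of direction was 0.55 for the members in ApoE3 and 0.63 in ApoE4. Over all genes it was 0.42 in each genotype. The median size of the relative genotype ratio over all genes was 0.12 at 7 dpi and 0.14 at 21 dpi.

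In ApoE3 the relative time ratio was -1.14 for NFE2L2, -1.08 for SLC7A11, -0.83 for TXNRD1, -0.56 for SRXN1, -0.54 for GPX1 and -0.51 for PRDX1. It was -0.04 for GCLM, 0.14 for GCLC, 0.36 for NQO1 and 0.99 for GPX4. Past the fold of 1.3 were 6 of 10 members lower and 1 of 10, GPX4, higher at 21 dpi, beside 27.7% and 26.6% of all genes. The median over the members was -0.53, and NFE2L2 lay above 6.61% and GPX4 above 95.4% of all genes.

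In ApoE4 the relative time ratio was -1.33 for NFE2L2, -1.14 for SLC7A11, -0.84 for TXNRD1, -0.83 for GPX1 and -0.43 for PRDX1. SRXN1 had -0.16, GCLC 0.11, GCLM 0.12, NQO1 0.33 and GPX4 0.82. Past the fold were 5 of 10 members lower and 1 of 10, again GPX4, higher, beside 28.6% and 26.1% of all genes, and the median over the members was -0.30. On the scale as deposited the median of the members was 0.23, with 2 of 10 lower, NFE2L2 and SLC7A11, beside 10.9% of all genes, and 4 of 10 higher, beside 59.0%. PRDX1 and SRXN1 in ApoE4 changed direction between these scales, with deposited time ratios of 0.09 and 0.36. GCLM did so in ApoE3, from -0.04 relative to the median gene to 0.05 as deposited.

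**Figure D3:**
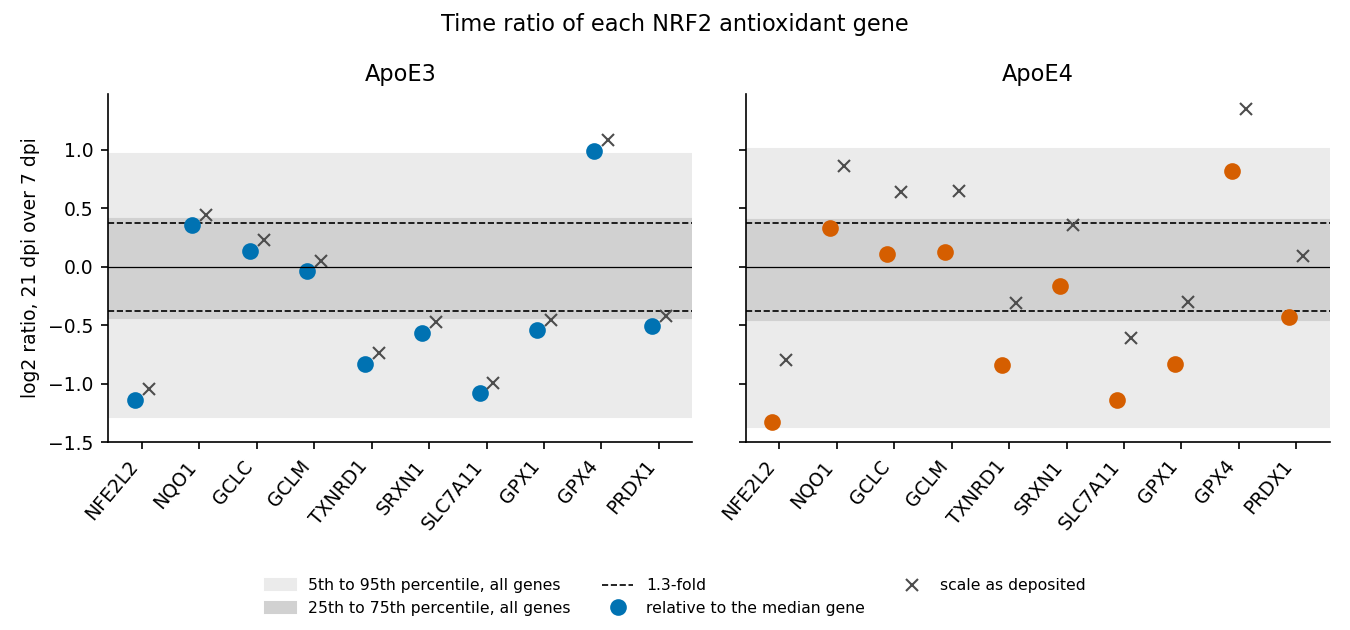
Log2 ratio of 21 dpi over 7 dpi for each of the 10 genes in ApoE3 and in ApoE4, relative to the median gene (circles) and on the scale as deposited (crosses), with 1 value each. Grey bands give the spread of the relative ratio of all genes and dashed lines the fold of 1.3. NFE2L2 and SLC7A11 are lowest and GPX4 highest in both genotypes, and in ApoE4 the crosses lie 0.53 above the circles.

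The genes whose pattern over the 4 groups was closest to that of NFE2L2 were TRAM1, ITGB1 and CENPL, at distances of 0.034, 0.036 and 0.041 on the log2 scale among 10646 genes, for which the median distance was 1.28. TRAM1, a protein of the translocation channel of the endoplasmic reticulum, had 29.5 and 34.8 FPKM at 7 dpi and 13.7 and 19.2 FPKM at 21 dpi in ApoE3 and ApoE4. ITGB1, the integrin beta subunit for matrix adhesion, had 59.7 and 71.1 FPKM at 7 dpi and 29.2 and 40.7 FPKM at 21 dpi. Among the members, TXNRD1 was nearest to NFE2L2 at 0.42, then SLC7A11 at 0.46 and GPX1 at 0.55, and GPX4 was farthest at 2.16. The measure rests on 4 values per gene.

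The other genes of the pathway were taken from 10 lists, which hold 71 genes outside the set. At 7 dpi 66 of them had values, of which 0 were higher in ApoE3 past the fold and 2 were higher in ApoE4, HMOX1 and FTL1, or 3.03%, beside the 3.76% and 4.82% of all genes. At 21 dpi 57 had values, of which 4 were higher in ApoE3 and 7 in ApoE4, or 7.02% and 12.3%, beside the 7.46% and 8.06% of all genes. The median relative ratio of these genes was -0.04 at 7 dpi and -0.05 at 21 dpi. These counts are relative to the median gene, and without the subtraction the shift at 21 dpi moves them toward ApoE4. The 4 genes higher in ApoE3 then fell short of the fold of 1.3. Their log2 ratios as deposited were 0.32 for TXNRD2, 0.16 for GPX3, 0.004 for GPX8 and 0.001 for ABCC1.

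HMOX1, the heme oxygenase that frees iron from heme and a classic NRF2 target, had 65.4 FPKM in ApoE3 and 90.6 FPKM in ApoE4 at 7 dpi, a relative ratio of -0.47. At 21 dpi it had 8.60 and 15.0 FPKM, a relative ratio of -0.31, and its relative time ratio was -2.88 in ApoE3 and -3.05 in ApoE4. FTL1, the light chain of the iron store ferritin, had 2911 FPKM in ApoE3 and 4136 FPKM in ApoE4 at 7 dpi, a relative ratio of -0.51. Its value at 21 dpi was 791 FPKM in ApoE3 and 1268 FPKM in ApoE4. Both had their highest level in ApoE4 at 7 dpi, whereas FTH1, the ferritin heavy chain, had its highest in ApoE4 at 21 dpi, with 8250 and 10043 FPKM at 7 dpi and 14589.8 and 22271 FPKM at 21 dpi. FTL1 has pseudogenes that can share its reads.

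Among the regulators of NRF2, 0 of 10 were past the fold at 7 dpi and 1 of 8 at 21 dpi. That gene was MAFF, a small MAF partner, with 15.9 FPKM in ApoE3 and 29.6 FPKM in ApoE4 and a relative ratio of -0.43. KEAP1, with 89.6 and 88.1 FPKM, and CUL3 had values at 7 dpi and were not analysed here at 21 dpi. BACH1, the repressor that competes for the same elements, had 29.7 and 27.1 FPKM at 7 dpi and 10.2 and 16.4 FPKM at 21 dpi.

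For glutathione synthesis and recycling the counts were 0 of 8 at 7 dpi and 1 of 6 at 21 dpi, GGT1, which cleaves extracellular glutathione, with 30.7 FPKM in ApoE3 and 55.7 FPKM in ApoE4. Of the thioredoxin and peroxiredoxin genes 0 of 11 were past the fold at 7 dpi. At 21 dpi 1 of 11 was higher in ApoE3, the mitochondrial thioredoxin reductase TXNRD2, with 101 FPKM in ApoE3 and 80.6 FPKM in ApoE4. Also 1 of 11 was higher in ApoE4, the peroxiredoxin PRDX6, with 2397 and 4227 FPKM, whose reads can be shared with its copy PRDX6B. TXNRD2 had 41.2 and 41.3 FPKM at 7 dpi, so its level was higher at 21 dpi, while that of the cytosolic TXNRD1 was lower.

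Of the glutathione peroxidases 0 of 5 were past the fold at 7 dpi, while at 21 dpi 2 of 5 were higher in ApoE3. These were the secreted GPX3, with 145 FPKM in ApoE3 and 130.0 FPKM in ApoE4, and GPX8, a peroxidase of the endoplasmic reticulum, with 18.3 FPKM in both, an equal level that is higher in ApoE3 relative to the median gene. In time GPX4 was the exception in this list, because the other 4 of 5 were lower past the fold at 21 dpi in both genotypes. The median relative time ratio of the list was -0.67 in ApoE3 and -1.38 in ApoE4.

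For detoxification and export 1 of 14 genes was past the fold at 7 dpi, which was HMOX1. At 21 dpi 1 of 11 was higher in ApoE3, the glutathione conjugate exporter ABCC1 with an equal 14.5 FPKM in both groups, and 1 of 11 in ApoE4, the glutathione transferase GSTA3 with 6.04 and 11.96 FPKM. None of the 6 genes of NADPH supply, of the 4 superoxide dismutases and catalase, or of the 5 genes of selenoprotein synthesis was past the fold at 7 dpi. At 21 dpi the same held for 6, 3 and 5 genes with values. The ferroptosis list had 1 of 8 genes past the fold at 7 dpi, FTL1, and 1 of 7 at 21 dpi, the lysophospholipid acyltransferase LPCAT3, with 28.2 FPKM in ApoE3 and 50.9 FPKM in ApoE4.

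NADPH oxidase, the phagocyte enzyme that makes superoxide, is a source of oxidants and not a defence. At 7 dpi 0 of its 5 subunit genes with values were past the fold, and all 5 had relative ratios below 0, with a median of -0.36. At 21 dpi 2 of 5 were higher in ApoE4, NCF4 with 15.9 and 31.5 FPKM and CYBB with 5.06 and 10.2 FPKM in ApoE3 and ApoE4, and the median was -0.35. All 5 were lower past the fold at 21 dpi than at 7 dpi in both genotypes, with a median relative time ratio of -1.46 in ApoE3 and -1.78 in ApoE4.

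**Figure D4:**
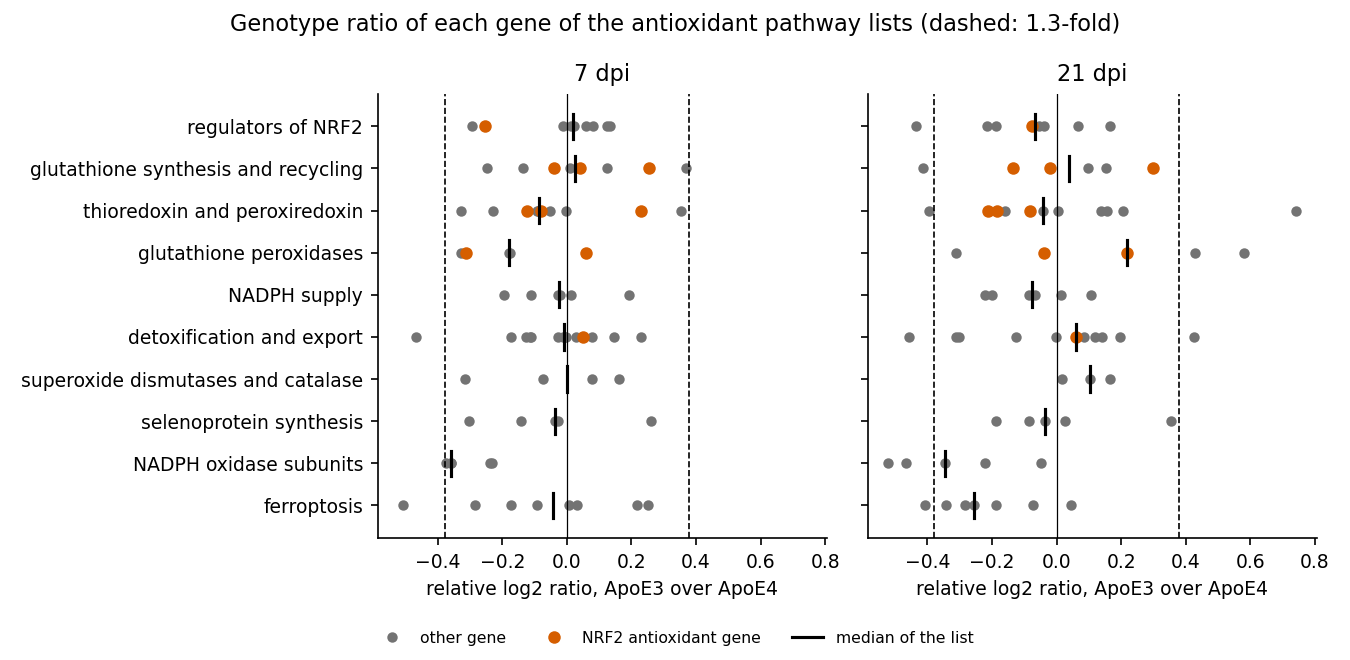
Relative log2 ratio of ApoE3 over ApoE4 for each gene of the 10 pathway lists at 7 dpi and at 21 dpi, with the NRF2 antioxidant genes in orange, other genes in grey and the median of each list as a bar. Dashed lines mark the fold of 1.3. The 5 NADPH oxidase genes lie left of 0, higher in ApoE4, at both times, and HMOX1 and FTL1 are the only points past a dashed line at 7 dpi.

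Lists of cell type markers were described in the same way. Of the monocyte and macrophage list 3 of 9 genes were higher in ApoE4 past the fold at 7 dpi and 3 of 7 at 21 dpi, and 0 were higher in ApoE3. Its summed FPKM over the 7 genes with values in all groups was 5963 in ApoE3 and 7788 in ApoE4 at 7 dpi, and 377 and 706 at 21 dpi. The most abundant gene, the lysozyme LYZ2, had 4522 and 6076 FPKM at 7 dpi and 212 and 426 FPKM at 21 dpi. All 7 genes were lower past the fold at 21 dpi in both genotypes, with a median relative time ratio of -3.33 in ApoE3 and -2.57 in ApoE4. Their part in the ratios of the members was not tested, and in a segment of tissue fewer cells of a type and less RNA per cell cannot be told apart.

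Fibroblast and pericyte genes were also lower at 21 dpi, 6 of 7 in ApoE3 and 7 of 7 in ApoE4 past the fold. Their summed FPKM over those 7 genes was 709.7 and 903 at 7 dpi and 144 and 108 at 21 dpi in ApoE3 and ApoE4. COL1A1, the most abundant of the 7 at 7 dpi, had 212 and 269.96 FPKM at 7 dpi and 2.44 and 2.27 FPKM at 21 dpi. FN1, with 454 and 511 FPKM at 21 dpi, was not analysed here at 7 dpi. By genotype 2 of 7 were higher in ApoE4 at 7 dpi and 5 of 8 higher in ApoE3 at 21 dpi. Their part in the time ratios of the members was not tested either.

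Neuron genes were higher past the fold at 21 dpi, 7 of 9 in ApoE3 and 8 of 9 in ApoE4. In ApoE3 1 of 9 was lower, MAP2, at 2879 FPKM at 21 dpi. The part of the neuron genes in the time ratios of the members was not tested. The summed FPKM of these 9 genes was 9212 and 7166 at 7 dpi and 11503 and 17742 at 21 dpi in ApoE3 and ApoE4. By genotype 1 of 10 was higher in ApoE3 past the fold at 7 dpi, SNAP25 with 3366 and 2545 FPKM, and all 10 had relative ratios above 0. At 21 dpi 2 of 9 were higher in ApoE4. The most abundant was MAP2 at 7 dpi, with 4119 and 3184 FPKM, and SNAP25 at 21 dpi, with 5336 and 7812 FPKM.

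Of the 8 astrocyte genes 0 were past the fold at 7 dpi and 2 were higher in ApoE4 at 21 dpi, among them the most abundant, GFAP, with 8201 FPKM in ApoE3 and 15313 FPKM in ApoE4. Over time 4 of 8 astrocyte genes were lower past the fold at 21 dpi in ApoE3 and 3 of 8 in ApoE4. In each genotype 1 was higher, and the median relative time ratio was -0.51 in ApoE3 and -0.27 in ApoE4. None of the oligodendrocyte genes was past the fold, of 5 at 7 dpi and 7 at 21 dpi. Their most abundant gene MBP had 120571 and 127575 FPKM at 7 dpi and 201348 and 278678 FPKM at 21 dpi. Over time 2 of 5 oligodendrocyte genes were higher past the fold at 21 dpi in each genotype, and 0 were lower. The part of the astrocyte and oligodendrocyte genes in the time ratios of the members was not tested. For microglia the counts were 0 of 5 at 7 dpi and 1 of 3 at 21 dpi, SIGLECH, with 123 and 237 FPKM. P2RY12 and CX3CR1 were not analysed here.

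Of the erythrocyte genes 0 of 5 at 7 dpi and 0 of 4 at 21 dpi differed by genotype past the fold, and all 4 with values at both times were higher at 21 dpi in both genotypes. HBA-A1, the most abundant at 21 dpi, had 146 and 142 FPKM at 7 dpi and 458 and 589.7 FPKM at 21 dpi. Of the neutrophil genes 2 of 4 had a higher ApoE3 level past the fold at 7 dpi, whereas 2 of 5 had a higher ApoE4 level at 21 dpi, and the most abundant, CSF3R, was not among them, with 485 and 589 FPKM at 7 dpi. Of the endothelial genes 1 of 8 was higher in ApoE4 at 7 dpi and 2 of 7 higher in ApoE3 at 21 dpi. The most abundant endothelial gene was FLT1, with 106 and 138 FPKM at 21 dpi.

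At 21 dpi several genes that mark tissues outside the cord were past the fold between the genotypes. Of the Schwann cell genes 5 of 7 were higher in ApoE3, with sums of 3521 FPKM in ApoE3 and 1722 FPKM in ApoE4 and PMP22 the most abundant at 1969.95 and 992 FPKM, and PMP22, SOX10 and MAL of this list are also expressed in oligodendrocytes. Of the sensory ganglion neuron genes 6 of 7 were higher in ApoE3. TAC1, which spinal neurons also express, was the most abundant of that list and higher in ApoE4, at 78.8 and 188 FPKM, and TRPV1 and MRGPRD stood at 0 in the ApoE4 group. The sums of the 7 genes, 149 and 191 FPKM, follow TAC1, whereas AVIL had 39.1 FPKM in ApoE3 and 1.20 FPKM in ApoE4 and SCN10A had 20.1 and 0.153 FPKM.

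Skeletal muscle genes were higher in ApoE4 at 21 dpi, 6 of 6, with sums of 27.6 FPKM in ApoE3 and 675 FPKM in ApoE4. TNNT3 led them at 22.5 and 515 FPKM, and MYH4 was listed at 0 in ApoE3. Liver genes were likewise higher in ApoE4, 7 of 7, with sums of 10.7 and 129 FPKM and APOA2 the most abundant at 5.38 and 59.2 FPKM. No liver gene had a value at 7 dpi, where 2 of 6 muscle genes were higher in ApoE3 and 1 in ApoE4. Also at 7 dpi 2 of 6 Schwann cell genes were higher in ApoE4 and 1 of 3 sensory ganglion genes higher in ApoE3. The part of these tissues in the genotype ratios of the members at 21 dpi was not tested.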

How the data were processed

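The deposited unit is FPKM with 1 added, and the authors gave 1 such value per gene, genotype and time point, from 100-nucleotide single-end reads of RNA with a RIN of at least 9, each library down-sampled to the same number of reads. In 1 replicate a much smaller share of the reads aligned than in the others, and its group is not named in the text of the sources used here. The submitters' processing notes name STAR 2.5.4b, Bowtie2 2.1.10, SAMtools 0.1.7 and Cuffdiff 1.3.0, and the genome build is not given in the sources used here. The table also holds the authors' fold changes, p-values and q-values. None of these values entered a result, but the fold change, being the ratio of both value columns, helped to read which column is ApoE3. A second table, of their DEGs, was not used.

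Here 1 was subtracted from each value, the 2 genes on 2 rows at each time point were left out, and log2 ratios with a pseudocount of 1 were taken relative to the median ratio of all genes whose mean FPKM was 1 or more. Past the fold means 1.3-fold or more. The computation was tested on simulated data. Genes were named if they were members, among up to 2 genes per pathway list, direction and time point with the largest ratio past the fold, the 3 nearest to NFE2L2, or the most abundant of 1 of 13 cell type lists. Other genes were named after their values were seen. The values of some genes under this rule are not reported here. The members and lists were chosen with earlier results of these data known. Alternatives were no subtraction, pseudocounts of 0.1 and 0.01, folds of 1.5 and 2, a filter that kept genes whose mean FPKM was 1 or more, and scaling of the FPKM of one group by the median ratio before the pseudocount. Python 3.11.15, numpy 2.4.6, pandas 2.3.3 and matplotlib 3.10.9 were used.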

Additional observations from a re-analysis of the deposited data

How the results depend on the processing

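A higher fold could not move a genotype count of 0, and the filter on the mean FPKM could not move any value of the members, all of which passed it. With either pseudocount, or with the FPKM scaled first, 0 of 10 members were past the fold of 1.3 by genotype at 7 and at 21 dpi, beside 3.77% to 6.25% of all genes in a direction at 7 dpi and 7.04% to 10.5% at 21 dpi. Leaving the median unsubtracted at 21 dpi by construction leaves in the shift of all genes. Then 7 of 10 members were higher in ApoE4 past the fold, beside 58.9% of all genes, and their median ratio was -0.48. Without the subtraction 2 members were higher at 21 dpi in ApoE3, beside 31.3% of all genes, and 6 lower, beside 23.6%. In ApoE4 4 were then higher, beside 59.0%, and 2 lower, beside 10.9%, with a median ratio of 0.23, and PRDX1 changed direction to 0.094. With a pseudocount of 0.1 or 0.01, 2 members were higher over time in ApoE3, beside 27.8% and 27.9% of all genes, since NQO1 then had 0.38. A higher fold by construction leaves fewer. With a fold of 1.5, 3 members were lower over time in ApoE3, beside 18.8% of all genes, and 4 in ApoE4, beside 19.3%. With a fold of 2, 2 were lower in each genotype, beside 8.51% in ApoE3 and 9.06% in ApoE4, and 0 higher, beside 4.45% and 5.09%. The medians and single genes over time were added to the alternatives after the data were seen. Depth per gene is unknown, so the precision of the low levels, such as those of SLC7A11 and NQO1, is unknown too. No paired analysis was possible because each group has 1 value per gene.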
